A study of Mus musculus with 2 samples.

Results

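The genes described here are those of retinoid metabolism, led by Dhrs9, a short-chain dehydrogenase that can oxidise retinol. There are 13 of them among the 19938 genes with a named probe set of their own on the array. Of these, 9 were listed by name (Dhrs9, Dhrs3, Dhrs4, Rdh10, Rdh11, Aldh1a1, Aldh1a2, Aldh1a3 and Stra6), and Rbp2, Rbp7, Crabp1 and Crabp2 came in as cellular retinoid-binding genes. The set was built around the large difference of Dhrs9 seen in these same values, so its differences are a description. Each had 1 probe set of its own. Tissue came from inguinal white adipose tissue, the subcutaneous fat of the groin, of male C57BL/6J littermates. One group was UCP1/ApoE-DKO (Ucp1-/-;ApoE-/-) and the other ApoE-KO (ApoE-/-), so both groups lacked ApoE, the lipoprotein ligand whose loss makes mice hypercholesterolaemic. UCP1 is the protein of brown and beige adipocytes that releases energy as heat. Housing was at 23 °C, and high-fat feeding began at 9 weeks of age and lasted 9 weeks. RNA of 3 mice per genotype was mixed and hybridised to 1 Affymetrix array, so 2 arrays make up the data and no spread between mice or arrays was measured.

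Vitamin A reaches cells mostly as retinol bound to the blood protein RBP4, and STRA6 is a membrane receptor that takes it up. Inside the cell retinol is oxidised reversibly to retinal, by enzymes such as RDH10 and DHRS9, and reductases such as DHRS3 drive the reaction back. The ALDH1A enzymes then oxidise retinal irreversibly to retinoic acid, which binds the nuclear receptors RAR and RXR and is cleared by the CYP26 enzymes. Fat is a store of retinyl esters after the liver. Retinoic acid can induce Ucp1 in cultured mouse brown adipocytes, and mice without Aldh1a1 have been described as having more thermogenic white fat.

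The label of each array was checked on the deleted genes. The Ucp1 probe set read 2230 in the DKO-labelled array and 219 in the ApoE-KO-labelled array, which goes against the labels unless its probes lie outside the disrupted part of the gene; neither labels nor files place them. Apoe, disrupted in both genotypes, had 502 in the DKO-labelled array and 589 in the ApoE-KO-labelled array. Every direction below therefore rests on the labels. Intensities are the deposited linear values, and a difference is log2 of the DKO-labelled array minus log2 of the ApoE-KO-labelled array, so that 1 is a doubling. An expression floor was set at an intensity of 196.9, the median over named probe sets of their mean on the log2 scale. A gene is called above the floor when its mean over both arrays reaches it, as 9891 genes did; the floor is a working rule and no detection limit. The median difference over all 19938 genes was -0.01, and the middle 90% of the genes above the floor lay between -0.52 and 0.76. Array medians were 152.1 (labelled DKO) and 157.65 (labelled ApoE-KO).

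Promoter sequences are shown for 3 genes whose values carry the account, Dhrs9 and the gene pair Aldh1a1 and Aldh1a7. Each is the 250 bases before a transcription start in RefSeq (build GRCm38.p6), written 5′ to 3′ on the strand of the gene. For Dhrs9 (chr2:69380212-69380461, plus strand) capitals mark the letters AGGTCA, the half-site that retinoid receptors and PPARs share, here on the opposite strand 88 to 83 bases before the start. For Aldh1a1 (chr19:20601718-20601967, plus strand, the more downstream of 2 listed starts) and Aldh1a7 (chr19:20727557-20727806, minus strand) capitals mark their longest shared run. Of the 2 Aldh1a1 starts, this one was taken because it gave the longer run shared with Aldh1a7.
Dhrs9: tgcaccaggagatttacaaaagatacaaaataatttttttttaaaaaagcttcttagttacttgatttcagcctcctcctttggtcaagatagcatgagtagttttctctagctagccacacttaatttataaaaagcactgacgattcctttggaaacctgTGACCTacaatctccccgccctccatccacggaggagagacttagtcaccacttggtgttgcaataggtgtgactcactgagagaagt
Aldh1a1: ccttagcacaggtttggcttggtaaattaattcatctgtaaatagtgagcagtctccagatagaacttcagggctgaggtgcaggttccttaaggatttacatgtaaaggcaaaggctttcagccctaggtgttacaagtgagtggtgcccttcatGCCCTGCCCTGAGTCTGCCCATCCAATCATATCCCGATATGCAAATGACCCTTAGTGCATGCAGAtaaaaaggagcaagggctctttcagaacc
Aldh1a7: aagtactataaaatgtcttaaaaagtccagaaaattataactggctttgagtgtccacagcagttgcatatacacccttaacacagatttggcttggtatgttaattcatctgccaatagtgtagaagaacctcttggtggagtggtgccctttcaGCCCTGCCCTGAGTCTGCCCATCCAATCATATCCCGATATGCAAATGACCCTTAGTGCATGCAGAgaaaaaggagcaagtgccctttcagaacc
AGGTCA was searched on both strands in the 250 bases before each of 32851 listed starts, and 14% held it. The 10 members with a listed promoter had 17 starts, and 3 of these held it, in Dhrs9, Rbp2 and Rdh11. That is too few to set the members apart from the share of all starts. The direct repeats AGGTCANAGGTCA, AGGTCANNAGGTCA and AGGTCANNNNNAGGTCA, which contain the half-site, occurred in 0 member promoters and in 0.0335%, 0.00913% and 0.00913% of all. Only the 3 member starts that held AGGTCA could have matched, so that 0 says little. A match is a description of letters and says nothing about binding.

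Among the retinoid genes, Dhrs9 stood apart from the others. Dhrs9 had an intensity of 599 in the DKO-labelled array and 102 in the ApoE-KO-labelled array, which is 5.85-fold (2.55 on the log2 scale). The lower value lay under the floor; raised to the floor, it gave a difference of 1.61. Dhrs9 ranked 12 from the top among the 9891 genes above the floor, and 43 when values under the floor were raised to it. It counts as above the floor only through its DKO-labelled value. Its place in that ranking, and in the count that follows, therefore depends on the difference itself. Of the 6 members above the floor, 1 was at least 2-fold higher in the DKO-labelled array, and 0 were at least 2-fold lower. Over all genes above the floor 2.79% were at least 2-fold higher and 0.698% at least 2-fold lower, and since Dhrs9 was chosen on this contrast its count carries no weight against that share. The median of the 13 measured members was -0.02, against -0.01 over all genes, so the set as a whole showed no common direction. With 1 array per genotype no member has a replicate check. In RNA from whole tissue, fewer cells of a type and less RNA per cell cannot be told apart.

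**Figure D1:**
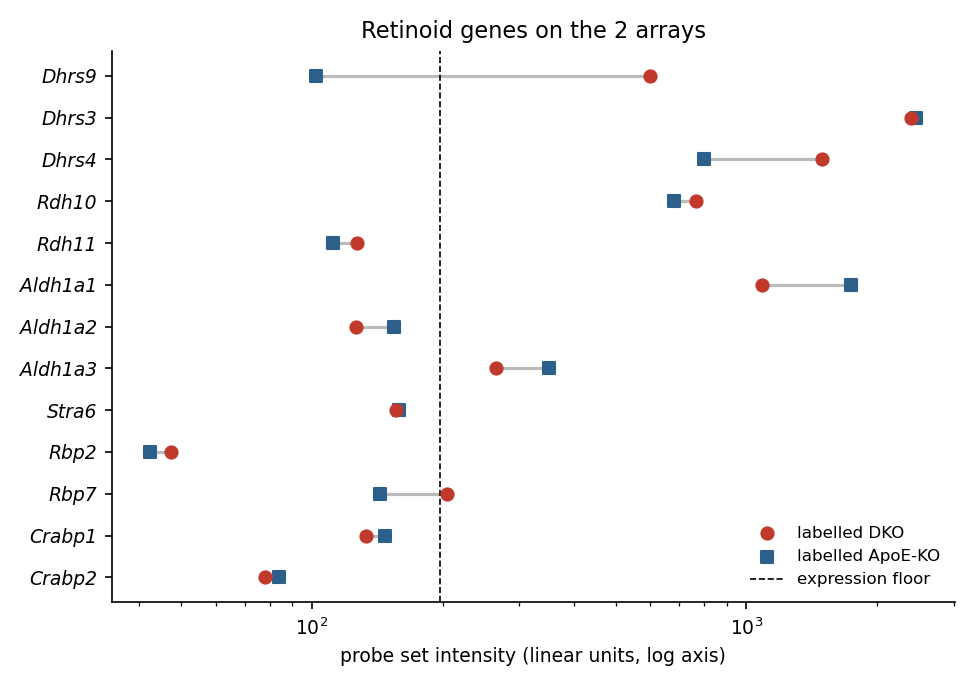
Probe set intensity (linear units, log axis) of the 13 measured retinoid genes, 1 row each, in the DKO-labelled array (circles) and the ApoE-KO-labelled array (squares); the dashed line is the expression floor of 196.9. Pairs are read within a row, since probe sets differ in brightness, and the widest gap is that of Dhrs9 (599 and 102).

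The enzymes acting between retinol and retinal did not move together. Rdh10, the main retinol dehydrogenase of mouse embryos, had an intensity of 767 in the DKO-labelled array and 680 in the ApoE-KO-labelled array, a difference of 0.17. Dhrs3, the reductase that returns retinal to retinol, had 2395 in the DKO-labelled array and 2462 in the ApoE-KO-labelled array, a difference of -0.04. Both lay well inside the middle 90% of genes. Dhrs4, a peroxisomal NADPH-dependent retinal reductase that also reduces other carbonyl compounds, had 1489 in the DKO-labelled array and 797 in the ApoE-KO-labelled array. Its difference of 0.90, or 1.87-fold, fell short of 2-fold and lay outside the middle 90%, at rank 357 of 9891. Rdh11, an endoplasmic reticulum retinal reductase, stayed below the floor with 127 in the DKO-labelled array and 112 in the ApoE-KO-labelled array. A second probe set, shared by Rdh11 and Pwwp3a and not used for either, had 243 in the DKO-labelled array and 292 in the ApoE-KO-labelled array, which is the opposite direction. Of these 5 enzymes, 4 were higher in the DKO-labelled array and 1 was lower, with a median difference of 0.18. The 4 include Rdh11. Over all 19938 genes 9249 were higher and 10397 lower, and 5 genes are too few to set against that share.

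All 3 genes of the irreversible step to retinoic acid were lower in the DKO-labelled array, each by less than 2-fold. Over all 19938 genes 10397 were lower, and 3 genes are too few to set against that share. Aldh1a1, the most widely expressed retinal dehydrogenase of adult tissues, had an intensity of 1084 in the DKO-labelled array and 1737 in the ApoE-KO-labelled array, which is 1.60-fold lower (-0.68). It ranked 225 from the bottom of 9891 genes, outside the middle 90%. Aldh1a3 had 265 in the DKO-labelled array and 351 in the ApoE-KO-labelled array, a difference of -0.41, inside the middle 90%. Aldh1a2, the retinal dehydrogenase of the early embryo, of mesothelium and of some dendritic cells, had 126 in the DKO-labelled array and 154 in the ApoE-KO-labelled array, both under the floor. Lowering the size rule to 1.5-fold brought in Dhrs4 beside Dhrs9 among the higher genes and Aldh1a1 as the 1 lower gene, where 7.57% and 3.73% of all genes above the floor passed in those directions.

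Aldh1a7, a rodent gene closely related to Aldh1a1, ran the opposite way from it. Aldh1a7 had an intensity of 2904 in the DKO-labelled array and 1497 in the ApoE-KO-labelled array, a difference of 0.96, just short of 2-fold. It had the largest difference of the 16 measured genes in a list of other aldehyde dehydrogenases. The 2 promoters shown above align with 68% identical positions over 272 aligned positions, and the run in capitals is 65 bases long, from 94 to 30 bases before the start in both. Since the Aldh1a1 start was picked for the longer run, these figures hold for that start only. Transcripts of close copies can bind each other's probes, and neither labels nor files place the probes of these 2 sets, so the split between Aldh1a1 and Aldh1a7 is uncertain.

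Uptake and binding genes lay low on this array. Stra6 had 156 in the DKO-labelled array and 158 in the ApoE-KO-labelled array, a difference of -0.02, both under the floor. Rbp7, a cellular retinol-binding protein found in adipose endothelium and fat, had 204 in the DKO-labelled array and 143 in the ApoE-KO-labelled array. Its difference of 0.51 became 0.05 with the lower of these values raised to the floor. Rbp2, the intestinal retinol-binding protein, had 47.5 in the DKO-labelled array and 42.5 in the ApoE-KO-labelled array. Crabp1, which carries retinoic acid in the cytosol, had 133 in the DKO-labelled array and 148 in the ApoE-KO-labelled array. Crabp2, which delivers it to its receptor, had 78.2 in the DKO-labelled array and 83.8 in the ApoE-KO-labelled array. None of the 4 measured binding genes had a mean above the floor, so these values say little about whether those genes differed.

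**Figure D2:**
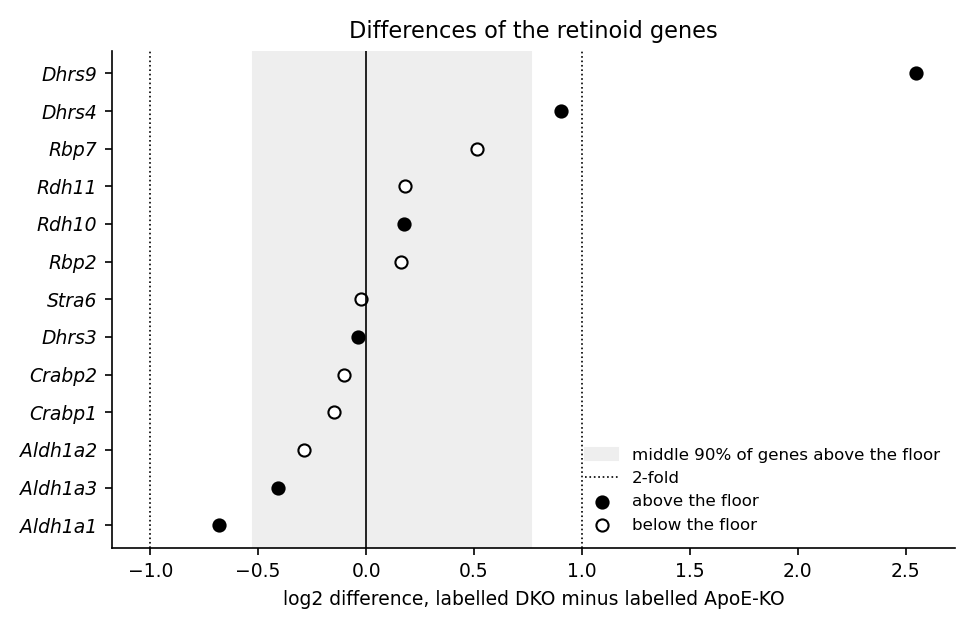
Log2 difference (DKO-labelled minus ApoE-KO-labelled array) of the 13 measured retinoid genes, ordered by value; filled points lie above the expression floor, open points below it, the grey band holds the middle 90% of the genes above the floor and dotted lines mark 2-fold. Dhrs9 (2.55) is the 1 point past 2-fold, Dhrs4 (0.90) and Aldh1a1 (-0.68) lie outside the band, and all 7 open points lie inside it.

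The genes beside Dhrs9 on chromosome 2 were mostly too dim to compare, with 5 of the 6 nearest under the floor. The median difference of its 6 nearest measured genes, 3 per side, was -0.11. Abcb11, the bile salt export pump of liver, had 44.3 in the DKO-labelled array and 36.3 in the ApoE-KO-labelled array. Lrp2, the endocytic receptor megalin, had 75.1 in the DKO-labelled array and 83.6 in the ApoE-KO-labelled array. G6pc2 (-0.19), a glucose-6-phosphatase of islets, and Spc25 (-0.05), a kinetochore gene, were also under the floor. Bbs5, a gene of the ciliary BBSome, was the 1 gene of the 6 above the floor, at 0.41. Klhl41, a skeletal muscle gene, had 78.8 in the DKO-labelled array and 413 in the ApoE-KO-labelled array, a difference of -2.39. Further out, and picked out after their values were seen, Fastkd1, which encodes a mitochondrial RNA-binding protein, differed by 1.12 and Cers6, a ceramide synthase gene on the other side, by -0.87.

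**Figure D3:**
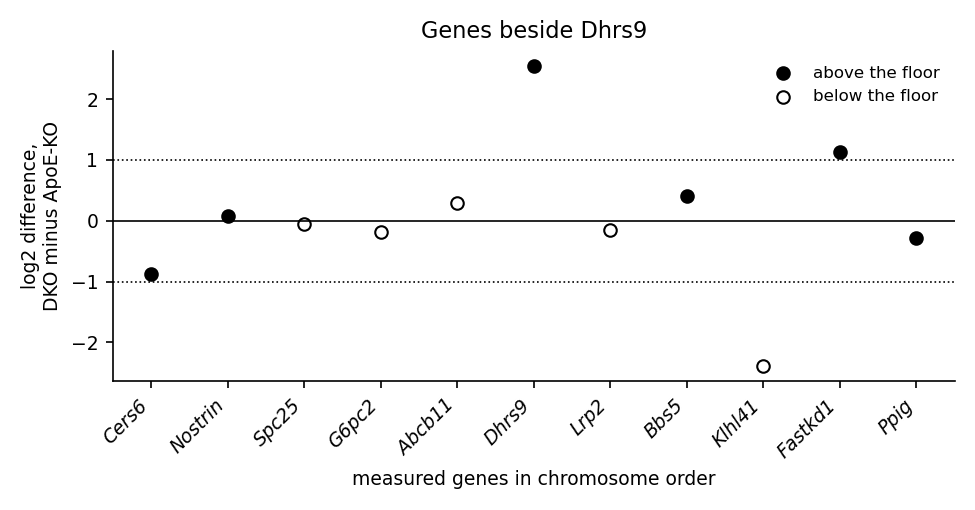
Log2 difference (DKO-labelled minus ApoE-KO-labelled array) of Dhrs9 and the 5 measured genes on each side, in chromosome order and not to distance; filled points lie above the expression floor, open points below it, and dotted lines mark 2-fold. Dhrs9 stands at 2.55, its immediate neighbours Abcb11 (0.29) and Lrp2 (-0.16) are under the floor, and Klhl41 lies at -2.39.

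The genes closest to Dhrs9 in size of difference were read off the order of all genes above the floor. The 3 genes ranked just above it were Adtrp (2.80), a hydrolase of fatty acid esters of hydroxy fatty acids, Pank1 (2.71), a kinase of coenzyme A synthesis, and Phospho1 (2.69), a phosphatase. The 3 ranked just below were Kng2 (2.38), a kininogen, Otop1 (2.36), a proton channel, and Acot11 (2.30), an acyl-CoA thioesterase of brown fat. Likeness here is the closeness of 1 difference between 2 arrays, so it carries no more than the order of sizes. Kng2 and Acot11, like Dhrs9, were under the floor in the ApoE-KO-labelled array, with 111 and 149.

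Other genes of the pathway were read from lists. Of 16 measured genes of other retinol dehydrogenases, 4 were above the floor and all 4 were higher in the DKO-labelled array, with 0 past 2-fold. They were Rdh14 (0.81), Rdh13 (0.63), the alcohol dehydrogenase gene Adh5 (0.57) and Adh1 (0.40), whose product oxidises retinol in bulk. Over all 9891 genes above the floor 4771 were higher and 5085 lower, and 4 genes are too few to set against that share. Adh1 had 3908 in the DKO-labelled array and 2969 in the ApoE-KO-labelled array. The median of the 16 was 0.16, against -0.01 over all genes. Rdh16 and Hsd17b6, which encode retinol and steroid dehydrogenases of the same family as DHRS9, were under the floor, with differences of 0.13 and 0.10 (picked out after their values were seen).

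The wider family of short-chain dehydrogenases, to which the Dhrs and Rdh genes belong, had the largest median of the retinoid-related lists. Of 28 measured genes 19 were above the floor. Past 2-fold were 6 genes upward, where 2.79% of all genes above the floor passed, and 0 downward, and the median over all 28 was 0.51. Decr1, a reductase of mitochondrial fatty acid oxidation, had 4997 in the DKO-labelled array and 1791 in the ApoE-KO-labelled array, a difference of 1.48. Decr2 (1.28) does the matching step in peroxisomes, and Cbr4 (1.19) is a reductase of mitochondrial fatty acid synthesis. Hsd17b12 (1.16) is the ketoacyl reductase of fatty acid elongation, Dhrs11 (1.15) reduces ketosteroids, and Hsdl2 (1.02) is a peroxisomal protein. Genes of the retinol dehydrogenase list were kept out of this one, so none of those could appear here. Dhrs9 had a larger difference than any of these 28 genes, but it was chosen on this contrast, so that order carries no weight. The list itself was chosen with earlier results of these data known, so its count past 2-fold carries no weight either.

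Other aldehyde dehydrogenases had a median of 0.07 over 16 measured genes, with 13 above the floor and 0 past 2-fold. After Aldh1a7 the largest differences were those of Aldh5a1 (0.72), the succinic semialdehyde dehydrogenase, Aldh1b1 (0.55), a mitochondrial enzyme, and Aldh9a1 (0.53), which makes a carnitine precursor. Both Aldh1a1 and Aldh1a3 lay below all 13 genes of this list that were above the floor.

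**Figure D4:**
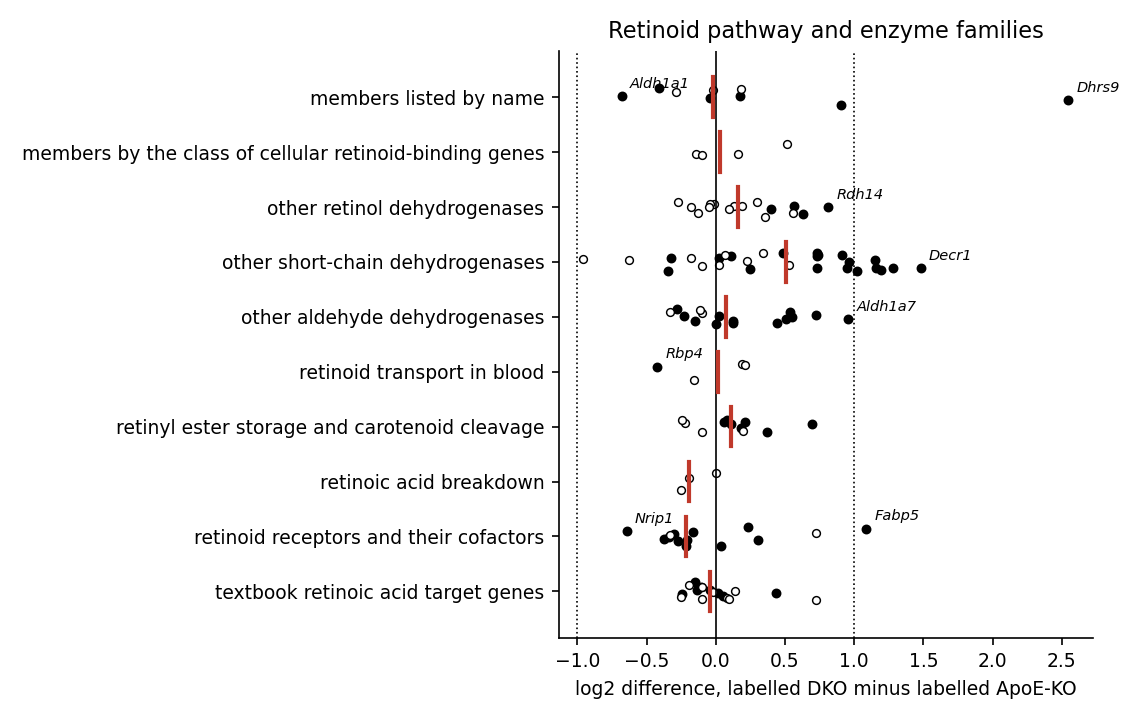
Log2 difference (DKO-labelled minus ApoE-KO-labelled array) of each measured gene in 10 lists of retinoid genes and related enzyme families; filled points lie above the expression floor, open points below it, red bars are list medians and dotted lines mark 2-fold. The highest median is that of the other short-chain dehydrogenases (0.51), and Dhrs9 (2.55) is the point farthest from 0.

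Supply, storage and breakdown genes differed by less than 2-fold. Rbp4, which carries retinol in blood and is also secreted by fat, had 1995 in the DKO-labelled array and 2680 in the ApoE-KO-labelled array, a difference of -0.43. The other 3 measured transport genes were under the floor. Genes of retinyl ester storage and carotenoid cleavage had a median of 0.11 over 11 genes, with 7 above the floor and 0 past 2-fold. Dgat1, which esterifies retinol as well as diacylglycerol, had 2165 in the DKO-labelled array and 1340 in the ApoE-KO-labelled array, a difference of 0.69. Ces1d, a carboxylesterase (0.37), Lpl, lipoprotein lipase (0.21), and Scarb1, a lipoprotein and carotenoid receptor (0.18), followed. All 3 Cyp26 genes of retinoic acid breakdown were under the floor. Cyp26b1 had 159 in the DKO-labelled array and 182 in the ApoE-KO-labelled array.

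Receptors and targets of retinoic acid did not share a direction. Of 14 measured receptor and cofactor genes, 12 were above the floor, 4 of these were higher and 8 lower in the DKO-labelled array, and the median of the 14 was -0.21. Fabp5, a fatty acid-binding protein that can bring retinoic acid to PPARδ, was the 1 gene past 2-fold, with 625 in the DKO-labelled array and 294 in the ApoE-KO-labelled array (1.09, or 0.97 with an offset of 50 before the logarithm). Nrip1, a corepressor that holds down thermogenic genes, had the largest difference downward (-0.64) and was picked out after its value was seen. Rara (-0.31), Rarg (-0.27), Rxra (-0.22), Rxrb (0.23) and Rxrg (0.31), the retinoic acid and retinoid X receptor genes above the floor, were picked out after their values were seen and all lay inside the middle 90%. Rarb, a receptor gene that retinoic acid induces in many cells, had 232 in the DKO-labelled array and 140 in the ApoE-KO-labelled array. Its difference of 0.73 became 0.23 with the floor as lowest value, and it too was picked out afterwards.

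Textbook retinoic acid targets, a list that shares Rarb, Cyp26a1, Cyp26b1, Dhrs3, Crabp2, Stra6 and Lrat with the lists above, had a median of -0.04 over 17 measured genes. Of these 8 were above the floor, and 0 of them reached 2-fold or 1.5-fold in either direction. At 1.5-fold, 7.57% of all genes above the floor were higher and 3.73% lower, so a count of 0 among 8 genes does not set the list apart. Tgm2, a transglutaminase, had 1399 in the DKO-labelled array and 1035 in the ApoE-KO-labelled array, a difference of 0.44. Rarres2, which encodes the adipokine chemerin, stood at -0.25, Zfp423, a transcription factor of white adipocyte identity, at -0.15 and the homeobox gene Meis1 at -0.14.

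Some cell type marker lists lay far from 0 and others near it. The mature adipocyte markers check that fat was sampled and cannot tell the inguinal depot from others. All 9 measured genes were above the floor, with a median of 0.05, among them Pparg (0.47), Slc2a4 (0.32) and Adipoq (-0.12). All 10 brown or beige markers were higher, with a summed intensity of 24788 in the DKO-labelled array and 3468 in the ApoE-KO-labelled array. This list was chosen with earlier results of these data known, so its count carries no weight. It includes Pank1 and Otop1, named above among the genes ranked nearest to Dhrs9. All 10 macrophage markers were lower, with a summed intensity of 10208 in the DKO-labelled array and 14715 in the ApoE-KO-labelled array, and Cd163 (-0.72), Cybb (-0.71) and Clec10a (-0.67) had the largest differences. Of the fibroblast and progenitor markers 8 of 9 were lower, led by Pi16 (-1.13), Fn1 (-0.85) and Col3a1 (-0.79). The 1 higher was F3 (0.76), picked out after its value was seen. Their summed intensity was 14602 in the DKO-labelled array and 22769 in the ApoE-KO-labelled array. B cell markers, listed to mark the inguinal lymph node (7 of 7 lower, median -1.10), and T cell markers (6 of 6 lower, median -0.64) were lower too. Over all 19938 genes 10397 were lower. These lists were also chosen with earlier results of these data known, so their counts carry no weight. How much lymph node each pool held was not tested. The part of these cell types in the differences of Dhrs9, Aldh1a1 and Aldh1a3 was not tested.

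Skeletal muscle transcripts were present in the ApoE-KO-labelled array. All 10 muscle markers were lower in the DKO-labelled array, as were 10397 of all 19938 genes. Their summed intensity was 1545 in the DKO-labelled array and 30029 in the ApoE-KO-labelled array, and no marker was at 0. Among the enzymes described here, Dhrs7c, which skeletal and heart muscle express and which was picked out after its value was seen, had 109 in the DKO-labelled array and 212 in the ApoE-KO-labelled array. The part of muscle in the other values was not tested. Mesothelial markers, the relevant check for Aldh1a2, were all under the floor in their means (median -0.07 over 8 genes). Dendritic cell markers had a median of -0.19 over 8 genes, endothelial markers 0.06 over 10 and epithelial or skin markers 0.10 over 8.

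**Figure D5:**
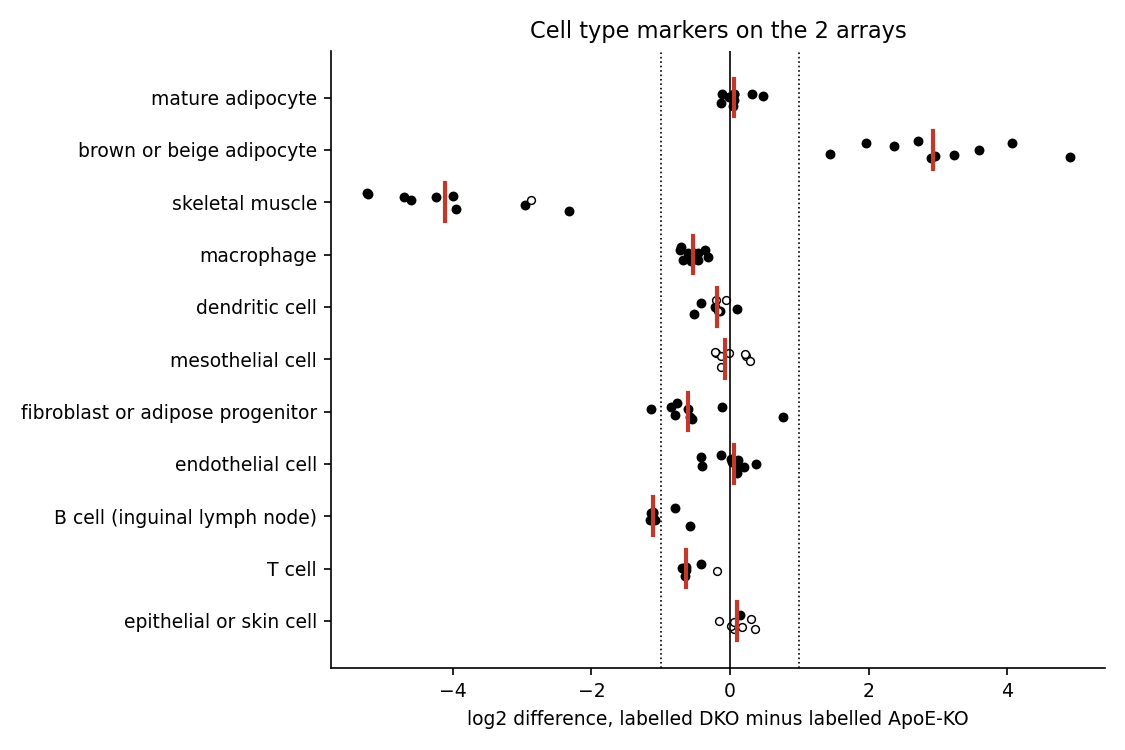
Log2 difference (DKO-labelled minus ApoE-KO-labelled array) of each measured marker gene in 11 cell type lists; filled points lie above the expression floor, open points below it, red bars are list medians and dotted lines mark 2-fold. Brown or beige markers (median 2.93) lie right of 2-fold, skeletal muscle markers (median -4.12) left of it, and mature adipocyte markers around 0.05.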

How the data were processed

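Total RNA was extracted with Trizol and biotin-labelled as fragmented DNA, per the labels' protocols. The authors deposited 1 linear intensity per probe set and array, between 3.55 and 23635.65. The sources used here give no background correction, probe summarisation, scaling or detection call. Log2 was taken with no pseudocount. Of 35557 probe sets, 21789 had 1 gene symbol in the platform annotation, 1621 with several symbols were not used, and 12147 had no name here. Of the 21789, 21698 matched RefSeq (GRCm38.p6) by Entrez identifier. Where a gene had more than 1 probe set (999 genes), the brightest by mean log2 intensity stood for it.

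No test was possible with a single array a group, so genes were counted at 2-fold. The members and lists were chosen with earlier results of these data known. Some genes of the lists are not reported here. Named were every member, every gene past 2-fold or up to 4 genes per retinoid list, up to 3 per marker list, and the neighbours of Dhrs9 by rank and by position. The calculation was tested on simulated data. Alternatives covered scaling, offset, probe set choice, floor and threshold. Promoters are from RefSeq. Python 3.11.15, pandas 2.3.3, numpy 2.4.6 and statsmodels 0.14.6 were used.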

Additional observations from a re-analysis of the deposited data

How the results depend on the processing

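No paired analysis was possible because each genotype had 1 array, and for the same reason no replicate could be left out. The number of arrays limits the precision of every value. Dhrs9 lay between 1.61 and 2.60 in 7 alternatives and stayed past 2-fold in each. Dhrs4 lay between 0.85 and 0.95, Aldh1a1 between -0.74 and -0.63 and Aldh1a3 between -0.46 and -0.35, all without a change of sign. Some alternatives could hardly alter these values. Members have 1 probe set each, so averaging probe sets changed nothing, and the floor as lowest value left Dhrs4, Aldh1a1 and Aldh1a3 as they were. Median centring and scaling on mature adipocyte markers shift all genes alike. The signs of Dhrs3 (-0.11 to 0.01) and Stra6 (-0.07 to 0.03) were not stable. Aldh1a7 reached 2-fold with median centring (1.01), and Fabp5 fell short of it with an offset of 50 (0.97). The count of members at least 2-fold higher became 0 with the floor at percentile 75. The mean of Dhrs9 over both arrays did not reach that floor. The same count became 2 at 1.5-fold, where the count lower became 1. Of 78 list medians under alternatives, 72 moved by less than 0.1. With the floor as lowest value, the other retinol dehydrogenases and the retinoic acid breakdown genes had medians of 0 and the other short-chain dehydrogenases 0.36. Among members above a floor at percentile 75, the other retinol dehydrogenases had 0.48, the other short-chain dehydrogenases 0.84 and blood transport -0.43 (Rbp4 alone). That floor left no retinoid-binding or breakdown gene, and leaving out the floor cannot alter medians taken over all measured genes. The rank of Dhrs9 became 43 in place of 12 with the floor as lowest value, a ranking added after seeing the data. Scaling on mature adipocyte markers was also added after seeing the data and moved every gene by -0.05.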

Other observations

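Some probe sets had exactly the same intensity, to 2 decimals, in both arrays. They numbered 471 of 35557 (1.32%), of which 46 lay at or above an intensity of 196.9. Among the genes of the lists, Aldh1l1, a folate enzyme, had 942 in both arrays, and Cyp26c1 had 147 in both. A difference of 0 for these genes is therefore an identity of the deposited values.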
